A study of Mus musculus with 24 samples.

Results

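Type D lines are mouse small cell lung cancer lines that die after p53 is restored, and 6 of the 24 libraries of the series compare them with p53 restored and with p53 off. The members are the Control and the Restored library of each of 3 Type D lines (4711-1, 4711-18 and 4716-11), none of which received cyclosporin A (CsA), the cyclophilin inhibitor used in other libraries. Each line was grown from a single tumor of a mouse that carried Trp53 XTR/XTR, with Rb1 and Rbl2 flox/flox and FlpO-ER at Rosa26, so each line stands for 1 tumor and the 3 lines are the replicates. The p-values measure the spread between libraries after the line means are taken out, pooled over all 24 libraries, both types and CsA included. Cre from an adenovirus with the CMV promoter had deleted Rb1 and Rbl2 in all of these cells, Controls included, and had flipped the XTR gene trap so that Trp53 transcripts end in GFP. In Restored cultures 4-hydroxytamoxifen activated FlpO-ER, which excises the trap, and Control cultures received the vehicle. RNA was taken 72 h later. Every Restored library was exposed to 4-hydroxytamoxifen and no Control library was, so the drug and the return of p53 cannot be told apart here. The names of 4711-1 and 4711-18 share their first number, and the labels do not say what that number means. The comparison asks which transcripts differ when p53 comes back in lines whose cells lyse. The paper also scored death of Type D cells at 72 h, so some cells in the Restored libraries may already have been dying. Their share was not measured here.

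p53 is a transcription factor that is kept low by MDM2, a ubiquitin ligase whose own gene it activates. When p53 builds up it switches on genes of cell cycle arrest, among them Cdkn1a, which encodes the CDK inhibitor p21, and genes of apoptosis such as Bax, Bbc3 and Pmaip1. It lowers many cell cycle genes indirectly, through p21, the pocket proteins and the DREAM complex, which binds promoters at CHR and E2F elements. CCAAT boxes, common in the same promoters, are bound by another factor, NF-Y. Small cell lung cancer nearly always lacks p53 and RB1, which is why an allele that can be switched back on is of interest in these cells.

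Levels are given in TPM, a transcript abundance per length that sums to the same total in each library, so they describe shares of RNA and not amounts per cell. Values are listed in the order 4711-1, 4711-18 and 4716-11. A change is the difference Restored minus Control of log2(TPM + 1) averaged over the 3 lines and is given ± its SE, with the adjusted p from limma. A gene was called higher or lower where the adjusted p was under 0.05 and the change was at least 1 log2 in size. On the log2(TPM + 1) scale the change of a gene with a low TPM is understated. Less RNA per cell and fewer cells of a kind cannot be told apart in these bulk libraries.

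Trp53 followed the labels in all 3 lines. It was at a TPM of 10.9, 13.9 and 10.7 in the Control libraries and 213, 181 and 203 in the Restored libraries. The 3 Restored values were above all Control values, and Trp53 rose by 3.97 ± 0.12 log2 (adjusted p = 4.9e-12). Rb1 was at 7.75, 13.4 and 10.1 in Control and 22.1, 40.6 and 39.3 in Restored and rose by 1.595 ± 0.12 log2 (adjusted p = 7.6e-08). A level over the whole gene does not check the deletion of part of it, so the Rb1 and Rbl2 alleles were not checked here. Rbl2 was at 4.49, 8.23 and 6.49 in Control and 4.99, 9.31 and 10.6 in Restored.

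Most transcripts that define neuroendocrine small cell lung cancer were at or near 0. Chga, a granule protein, was listed at 0 in all 6 libraries. Syp was at most 1.01 TPM, Uchl1 at most 1.88 and Insm1 at most 3.39. Ncam1 was at 10.1, 8.46 and 14.8 in Control and 9.53, 4.46 and 22.1 in Restored. Yap1, which marks a subtype without neuroendocrine genes, was at 105, 111 and 103 in Control and 97.4, 120.2 and 97.5 in Restored, and its change of -0.03 ± 0.07 log2 did not pass the test (adjusted p = 0.80). Markers of other cell types were at or near 0: the 6 fibroblast markers summed to at most 1.89 TPM and the 4 endothelial markers to at most 0.922, and Adgre1 and Cd3e were listed at 0. Among 7 macrophage and immune markers, Cd68 was the exception at 9.58, 7.87 and 9.92 in Control and 33.9, 29.1 and 55.3 in Restored, and the other 6 summed to at most 2.77 TPM in any library. Among alveolar and airway markers Sftpb stood at 88.6 TPM in the Control library of 4711-18 and at most 1.24 in the other 5 libraries.

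With p53 restored, 995 genes were higher and 587 lower of the 14104 tested, 7.05% and 4.16%, the shares to set beside each list count below. Of these, 979 of the higher and 577 of the lower genes had the same sign in all 3 lines, against 9214 (65.3%) of all genes tested. The same 3 lines chose the called genes, so their agreement in sign is largely built in and is a description. The Restored and Control values did not overlap for 822 of the higher and 470 of the lower genes. Non-overlap was not counted over all genes tested, so these counts are a description. When cell line was left out of the model, 633 genes were called higher and 344 lower, 4.49% and 2.44%. The median change over all tested genes was 0.07 log2. The share of calls that were higher was 62.9%. It moved to 52.4% after quantile normalization, with 785 genes higher and 714 lower, and to 55.3% after median-ratio scaling, with 857 and 694. The genes called higher took 2.57% to 3.68% of all TPM in the Control libraries and 10.3% to 11.6% in the Restored libraries. The genes called lower fell from between 4.80% and 5.45% to between 1.24% and 1.92%. Since the same contrast chose these genes, the shares are a description.

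**Figure D1:**
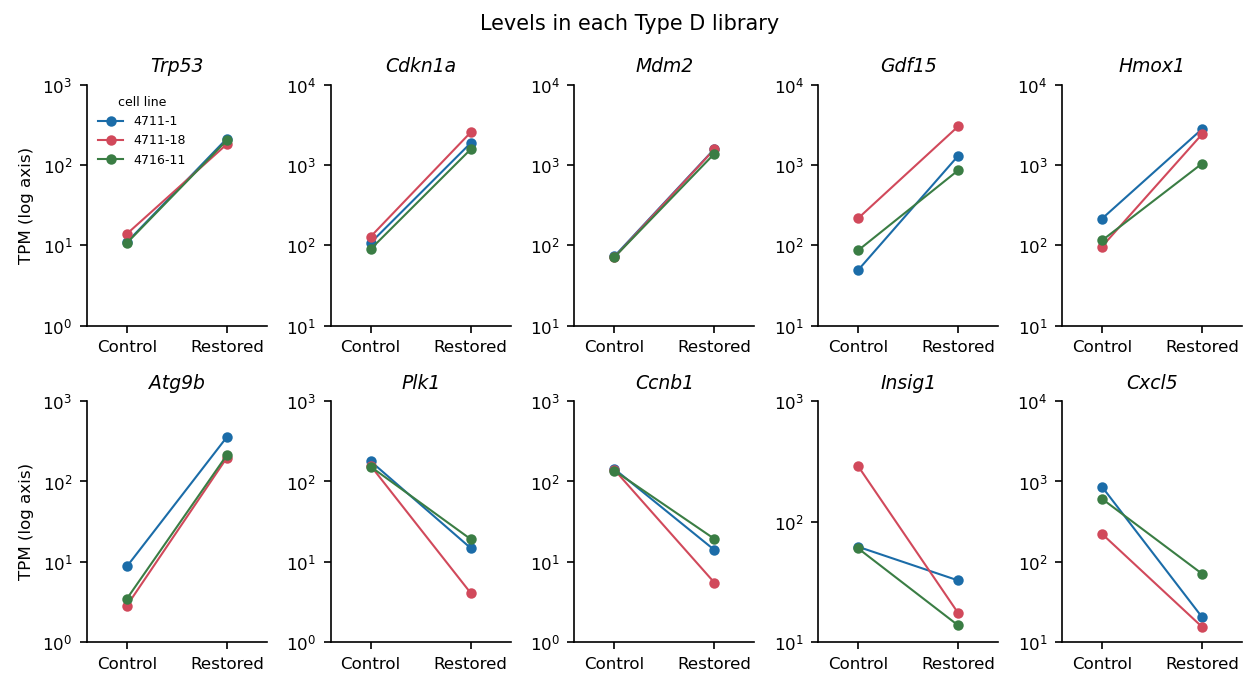
TPM on a log axis in the Control and Restored library of each Type D line for 10 genes, with 1 colored line joining the pair of each cell line. Trp53, Cdkn1a, Mdm2, Gdf15, Hmox1 and Atg9b rose in each line and Plk1, Ccnb1, Insig1 and Cxcl5 fell in each line; the 4711-18 pair ended lowest for Plk1 (4.12 TPM) and Ccnb1 (5.52 TPM).

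Mdm2 and its relatives form the feedback loop around p53. Mdm2 was at 73.4, 71.4 and 71.6 TPM in Control and 1584, 1570.1 and 1384 in Restored. The 3 lines lay close together within each group, and Mdm2 rose by 4.37 ± 0.13 log2 (adjusted p = 4.9e-12). Ccng1, which encodes cyclin G1, a partner of a phosphatase that acts on MDM2, went from 106, 98.8 and 108 to 969, 1184 and 1209.6 and rose by 3.41 ± 0.17 log2 (adjusted p = 9.8e-10). Mdm4, a second brake on p53, and Ppm1d, the WIP1 phosphatase, rose by 1.65 ± 0.27 and 1.201 ± 0.13 log2 (adjusted p = 0.00015 and 2.7e-06). In all, 4 of 8 tested feedback genes were called higher and 0 lower, against 7.05% and 4.16% of all genes tested. The ubiquitin regulators Usp7, Rchy1 and Cop1 were not called, with changes of -0.12, 0.73 and -0.102 log2.

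Of 13 genes of p53-linked cell cycle arrest, 11 were higher and 0 lower, against 7.05% of all genes tested. With 4711-18 left out, or with only the 6 libraries fitted, 7 were called. Cdkn1a was at 108, 129 and 89.96 TPM in Control and 1871, 2539.9 and 1563 in Restored. The groups lay far apart, and the rise was 4.17 ± 0.13 log2 (adjusted p = 8.7e-12). Plk2, a kinase of the centriole cycle, was at 99.9, 31.04 and 214 in Control and 596, 664 and 644 in Restored. Its 3 Restored libraries lay close together while its Control libraries did not, and it rose by 2.84 ± 0.39 log2 (adjusted p = 3.2e-05). Btg2, an antiproliferative cofactor, rose by 2.74 ± 0.43 log2 and Ptpn14, a phosphatase that restrains YAP, by 2.52 ± 0.13 log2 (adjusted p = 9.9e-05 and 1.2e-09). Gtse1, a gene of the G2 phase that is also induced by p53, rose by 2.097 ± 0.198 log2 (adjusted p = 7.1e-07) while the mitosis genes described later fell. Cdc25a, the phosphatase that opens the way into S phase, was at 34.6, 39.6 and 34.4 in Control and 34.04, 37.7 and 32.1 in Restored and did not pass the test (change -0.06 ± 0.09 log2, adjusted p = 0.60). Gadd45a was at 20.2, 30.9 and 28.5 in Control and 51.1, 109 and 43.7 in Restored, and its change of 1.23 ± 0.56 log2 did not pass the test although the groups did not overlap (adjusted p = 0.087).

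The promoter of Cdkn1a is shown because it was the 1 window among those of 760 genes called higher that held a full p53 site, which was read as a pair of 10-base half-sites separated by 0 to 13 bases. Over the promoters of all 10851 tested genes with a RefSeq window outside the chromosome left out, 5 held one (0.0461%). The window runs from 250 bases before to 50 bases after a RefSeq transcript start in GRCm38.p6, and Cdkn1a has 2 such starts, of which this is the first. The stretch lies upstream of the start at chr17:29090871-29090972 on the + strand. Capitals mark the 2 half-sites that matched the search pattern exactly, with the bases between them. The 10 bases right after the capitals, tgacatgttc, miss the half-site pattern only at their first base. They stay in lower case because inexact half-sites were not searched, so the marked pair may not be the one that p53 uses.
Cdkn1a: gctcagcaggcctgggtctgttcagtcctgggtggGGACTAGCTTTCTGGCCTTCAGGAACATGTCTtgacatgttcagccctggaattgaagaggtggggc
A single half-site was in the windows of 10.0% of genes called higher and 8.37% of all genes. A match is a description of the letters and was not tested for binding.

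Of 17 p53 targets linked to cell death, whether or not they promote it, 13 were called higher and 0 lower, against 7.05% and 4.16% of all genes tested. Their median change was 2.15 log2. Trp53inp1, which promotes autophagy and cell death, was at 23.5, 24.6 and 32.01 TPM in Control and 380.5, 296 and 355 in Restored and rose by 3.64 ± 0.19 log2 (adjusted p = 1.5e-09). Fas, the death receptor, was at 2.801, 9.405 and 3.98 in Control and 52.7, 68.8 and 80.8 in Restored and rose by 3.53 ± 0.45 log2 (adjusted p = 1.3e-05). Pidd1, the scaffold of the PIDDosome, was at 14.8, 13.3 and 12.7 in Control and 138, 133 and 136 in Restored. The 3 lines were nearly superimposed there, and the rise was 3.23 ± 0.18 log2 (adjusted p = 4.1e-09). Zmat3, an RNA-binding regulator of splicing, rose by 2.84 ± 0.11 log2 (adjusted p = 1.0e-10). The BH3-only activators Bbc3 (PUMA) and Pmaip1 (NOXA) rose by 2.15 ± 0.202 and 2.78 ± 0.24 log2, and Apaf1, the core of the apoptosome, by 2.08 ± 0.12 log2 (adjusted p = 6.6e-07, 2.3e-07 and 6.7e-09). Siva1 and Triap1 missed the size threshold at 0.91 ± 0.14 and 0.95 ± 0.15 log2, and Dram1, at 0.428, 1.85 and 1.72 in Control, did not pass the test (adjusted p = 0.29).

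Bax, the pore-forming effector, was at 349.7, 387 and 298 TPM in Control and 786, 805 and 728 in Restored and rose by 1.17 ± 0.09 log2 (adjusted p = 7.5e-08). It was the 1 member of 15 tested Bcl2 family and IAP genes called higher, and 2 were called lower (6.67% and 13.3%). The shares of all genes tested were 7.05% and 4.16%. The BH3-only gene Bmf, at 5.07, 34.96 and 7.39 in Control and 2.88, 6.27 and 3.95 in Restored, and the BAX relative Bok, at 178, 138 and 122 in Control and 105, 47.9 and 60.7 in Restored, were called lower, with changes of -1.24 ± 0.26 and -1.09 ± 0.22 log2 (adjusted p = 0.0011 and 0.00078). Neither was called without the cell line term (adjusted p = 0.17 and 0.26) or without 4711-18, where the changes were -0.704 with an adjusted p of 0.019 for Bmf and -0.87 with an adjusted p of 0.028 for Bok. The protective genes Mcl1 and Bcl2l1 (BCL-XL) had changes of 0.53 ± 0.12 and 0.86 ± 0.22 log2, short of the size threshold, and Bak1 of -0.14 ± 0.08 log2 did not pass the test (adjusted p = 0.18).

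Because Type D lines lyse, the genes of lytic death and of the mitochondrial permeability transition were read one by one. Of 10 tested genes of necroptosis, pyroptosis and membrane rupture, 1 was higher and 1 lower, near the 7.05% and 4.16% of all genes tested. Mlkl, the executioner of necroptosis, was at 58.5, 37.4 and 61.7 TPM in Control and 126, 103 and 86.2 in Restored. The groups did not overlap, and its rise of 1.001 ± 0.14 log2 lay at the size threshold (adjusted p = 4.0e-05). Without 4711-1 it was 0.96 with an adjusted p of 0.0022 and without 4711-18 0.78 with an adjusted p of 0.0013, and it was under the threshold after either rescaling of the libraries. Gsdme, a gasdermin, was at 26.2, 64.8 and 36.6 in Control and 12.6, 17.5 and 22.02 in Restored and was called lower, with a change of -1.18 ± 0.21 log2 (adjusted p = 0.00034), and without 4711-18 it was -0.85 with an adjusted p of 0.018. Ripk3, which activates MLKL, was at only 1.42, 2.24 and 3.69 in Control, and its change of -0.21 ± 0.23 log2 did not pass (adjusted p = 0.50). Ninj1, which ruptures the plasma membrane, had a change of 0.61 ± 0.12 log2, under the size threshold. Among 11 genes of the permeability transition, Ppif, the mitochondrial cyclophilin D, was at 15.1, 40.6 and 19.3 in Control and 18.3, 32.9 and 22.6 in Restored with a change of 0.06 ± 0.15 log2 (adjusted p = 0.79). Slc25a5, an adenine nucleotide carrier of the inner membrane, was at 757, 774 and 682 in Control and 337, 339.6 and 333 in Restored and fell by 1.13 log2 (adjusted p = 4.9e-07). Hk2, the hexokinase that docks on mitochondria, was higher by 1.19 ± 0.29 log2 (adjusted p = 0.0034). The Hk2 call was absent without the cell line term (adjusted p = 0.32) and without 4711-1 (0.997 with an adjusted p of 0.059).

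Cyclophilins are the targets of CsA. Of 15 tested genes, 0 were called higher and 1 lower, against 7.05% and 4.16% of all genes tested. Ppih, a cyclophilin of the spliceosome, was at 29.2, 27.9 and 28.7 TPM in Control and 14.1, 10.1 and 12.3 in Restored, with no overlap, and fell by 1.18 log2 (adjusted p = 2.7e-06). Ppia, the abundant cyclophilin A, was at 864, 839.9 and 950.5 in Control and 624, 474 and 674 in Restored, a change of -0.596 ± 0.09 log2. Ppib and Ppic had changes of -0.35 ± 0.09 and -0.87 ± 0.16 log2, under the size threshold. The paper names cyclophilins A and E as effectors of the death of Type D cells. Ppie, the gene of cyclophilin E, is not described here.

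Of 13 tested metabolic targets of p53, 8 were higher and 0 lower, against 7.05% and 4.16% of all genes tested. Ak1, adenylate kinase 1, was at 6.29, 23.1 and 9.24 TPM in Control and 257, 408 and 219 in Restored. Every Restored value exceeded every Control value by a wide margin, and the rise was 4.55 ± 0.37 log2 (adjusted p = 1.4e-07). Ddit4l, an inhibitor of mTOR signaling, was at 1.52, 3.803 and 4.002 in Control and 69.5, 103 and 86.99 in Restored and rose by 4.46 ± 0.22 log2 (adjusted p = 1.1e-09). Dcxr, a sugar reductase, rose by 3.74 ± 0.301 log2 and Sesn2, which restrains mTORC1 when amino acids are scarce, by 3.11 ± 0.28 log2 (adjusted p = 1.3e-07 and 4.8e-07). Its paralog Sesn1 had a change of -0.46 ± 0.15 log2, and Tigar, a brake on glycolysis, was at 31.6, 25.03 and 26.4 in Control and 34.3, 33.3 and 28.7 in Restored (change 0.21 ± 0.12 log2, adjusted p = 0.16). Of 12 DNA repair genes linked to p53, 2 were higher and 0 lower, the nuclease gene Ercc5 by 2.72 ± 0.12 log2 and the translesion polymerase gene Polk by 2.505 ± 0.15 log2 (adjusted p = 3.3e-10 and 5.6e-09). Ddb2 and Xpc, which recognize damage by ultraviolet light, had changes of 0.49 ± 0.18 and 0.49 ± 0.08 log2 and were not called.

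**Figure D2:**
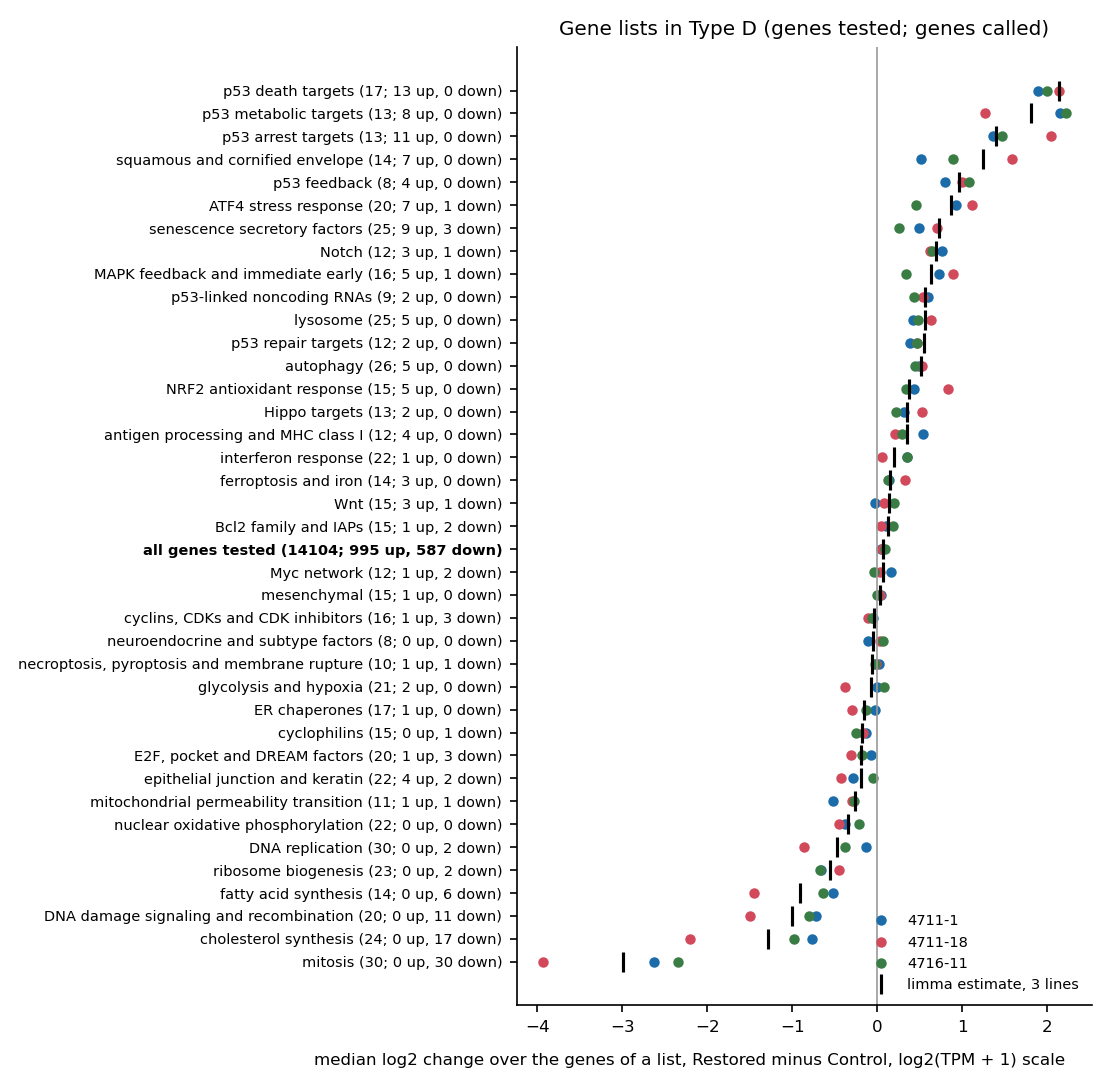
Median log2 change, Restored minus Control, over the tested genes of each of 38 gene lists and of all tested genes, with 1 dot per cell line and a black tick for the limma estimate over the 3 lines. The mitosis list lies farthest down at -2.99, cholesterol synthesis follows at -1.29 with 4711-18 lowest, and the p53 death targets lie highest at 2.15; all genes tested lie at 0.07.

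The largest rises by ratio were not all textbook p53 targets. The 12 largest with a mean TPM of at least 5 in the higher group were 1700007K13Rik, Atg9b, Sytl1, Slc4a11, Ces2e, Mmp10, Cd80, Inka2, Ak1, Tap1, Lce1g and Ms4a10. 1700007K13Rik, a gene of unassigned function, was at 0.272, 0.239 and 0 TPM in Control and 44.7, 123 and 48.1 in Restored and rose by 5.81 ± 0.28 log2 (adjusted p = 9.8e-10). Atg9b, a lipid scramblase gene of autophagosome formation, was at 8.78, 2.86 and 3.49 in Control and 356, 197 and 213 in Restored and rose by 5.48 ± 0.33 log2 (adjusted p = 8.4e-09). Both were far higher in each Restored library than in any Control library. Sytl1, a Rab27 effector of vesicle release, was at 1.14, 0.701 and 0.934 in Control and 57.4, 94.6 and 87.2 in Restored and rose by 5.36 ± 0.28 log2 (adjusted p = 1.5e-09). Slc4a11, a membrane transporter, rose by 5.23 ± 0.38 log2, Ces2e, a carboxylesterase, by 5.21 ± 0.44 log2, and Inka2, an inhibitor of the kinase PAK4, by 4.78 ± 0.23 log2. Cd80, a costimulatory ligand for T cells, was at 0.395, 0.231 and 0.431 in Control and 37.9, 32.5 and 38.2 in Restored and rose by 4.78 ± 0.18 log2 (adjusted p = 9.9e-11). Ms4a10 and Lce1g, a gene of the cornified envelope, rose by 4.47 ± 0.47 and 4.53 ± 0.65 log2 (adjusted p = 2.2e-06 and 4.8e-05). Lce1g belongs to a family of close copies, among which reads may be shared.

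By TPM gained, the picture was a different one. Sprr1a, a precursor of the cornified envelope, was at 3175, 142 and 5341 TPM in Control and 10296, 12535 and 14740.1 in Restored, the largest gain of any called gene. The Restored libraries lay within a narrow range although 4711-18 began far below the other lines, and the rise was 3.21 ± 0.85 log2 (adjusted p = 0.0062). Without the cell line term its adjusted p was 0.068. Ctsd, the lysosomal protease cathepsin D, was at 884, 778 and 737 in Control and 2884, 2967 and 2582 in Restored and rose by 1.81 ± 0.15 log2 (adjusted p = 1.7e-07). Hmox1, heme oxygenase 1, was at 215, 96.9 and 115 in Control and 2793, 2408 and 1039 in Restored, and Gdf15, a secreted stress cytokine, was at 49.5, 218 and 87.00 in Control and 1303, 3023 and 859 in Restored. Neither overlapped between groups, and they rose by 3.83 ± 0.49 and 3.92 ± 0.302 log2 (adjusted p = 1.4e-05 and 8.1e-08).

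The losses by TPM were led by S100a4, Lgals2, Scd2, Ptms and Cxcl5. S100a4, a calcium-binding protein of motile cells, was at 11173, 1339.8 and 7859 TPM in Control and 4589, 348 and 3262 in Restored. The level dropped in each line, but 4711-18 was low throughout and the groups overlapped, and the change of -1.498 ± 0.22 log2 (adjusted p = 4.9e-05) was not called without the cell line term (adjusted p = 0.62). Lgals2, a galectin, was at 1816, 1051 and 1048 in Control and 240.1, 34.1 and 164 in Restored, and Ptms, parathymosin, at 1641, 1822 and 1254 in Control and 692, 543 and 659 in Restored. They fell by 3.495 and 1.31 log2 (adjusted p = 9.7e-05 and 2.6e-06).

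Among the 12 largest falls by ratio, 7 were mitotic or cyclin genes (Plk1, Kif11, Cdca3, Troap, Ccna2, Ccnb1 and Ccnb2) and 5 were not (Vsig1, Cxcl5, Sprr2b, Lgals2 and Cyp4b1). Vsig1, an adhesion protein of gastric epithelium, was at 53.7, 100.2 and 87.02 TPM in Control and 1.97, 2.17 and 7.31 in Restored and fell by 4.203 log2 (adjusted p = 6.3e-07). Cyp4b1, a cytochrome P450 of lung epithelium, was at 29.2, 14.97 and 15.3 in Control and 1.04, 0.418 and 0.936 in Restored and fell by 3.48 log2 (adjusted p = 2.5e-08). Cxcl5, a neutrophil attractant, was at 860.2, 223 and 609 in Control and 20.7, 15.6 and 71.4 in Restored, with the Control libraries spread widely but all above the Restored ones. It fell by 4.05 log2 (adjusted p = 0.00045), and without the cell line term it was not called (adjusted p = 0.46). Sprr2b, a family member of Sprr1a that moved the other way, was at 15.3, 33.5 and 12.8 in Control and 0.475, 0.229 and 0 in Restored and fell by 4.02 log2 (adjusted p = 1.2e-05).

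The mitosis list fell without exception: all 30 genes were called lower, against 4.16% of all genes tested. For all 30 the Restored and Control values did not overlap, a count that was not made over all genes tested. The median member stood at 123, 124 and 122 TPM in the Control libraries and at 19.1, 5.67 and 21.1 in the Restored libraries. The 3 lines started level, and 4711-18 ended lowest. Plk1, the kinase that drives mitotic entry and spindle assembly, was at 178, 157 and 153 in Control and 14.9, 4.12 and 19.2 in Restored and fell by 3.79 log2 (SE 0.28, adjusted p = 4.9e-08). Kif11, the motor that separates spindle poles, was at 155, 115 and 128 in Control and 19.7, 2.31 and 18.3 in Restored and fell by 3.596 log2 (SE 0.35, adjusted p = 8.9e-07). Ccnb1 and Ccnb2, the B-type cyclins, fell by 3.48 and 3.47 log2 (adjusted p = 2.1e-08 and 4.8e-07). The smallest fall of the 30 was 2.06 log2. Outside the list, the A-type cyclin Ccna2 was at 165, 234 and 167 in Control and 17.4, 8.14 and 25.5 in Restored and fell by 3.51 log2 (adjusted p = 1.8e-07). Cdca3, which helps the cell enter mitosis, and Troap, a spindle pole protein, fell by 3.59 and 3.58 log2.

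The promoters of mitosis genes are shown because these genes moved together and share letters. The CHR element TTTGAA, on either strand, was in the windows of 17 of 25 mitosis genes that have one (68%), of 29.3% of the genes called lower, of 12.4% of those called higher and of 14.3% of all 10851. The CCAAT box, searched as CCAAT on either strand, was in 20 of 25 (80%), against 42.8% of all. The upstream stretches of the 6 deepest-falling mitosis genes with a CHR element before the start follow, 5′ to 3′ on the strand of the gene, with CHR matches in capitals.
Kif11 (chr19:37376328-37376381, +): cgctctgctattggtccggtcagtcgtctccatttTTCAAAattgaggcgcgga
Ccnb2 (chr9:70421681-70421756, -): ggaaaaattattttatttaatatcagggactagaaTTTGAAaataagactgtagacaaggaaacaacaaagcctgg
Top2a (chr11:99024190-99024247, -): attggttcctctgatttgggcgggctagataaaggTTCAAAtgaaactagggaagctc
Mki67 (chr7:135716437-135716512, -): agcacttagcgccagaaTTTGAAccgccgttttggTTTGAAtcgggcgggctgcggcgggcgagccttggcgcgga
Cdc20 (chr4:118437344-118437396, -): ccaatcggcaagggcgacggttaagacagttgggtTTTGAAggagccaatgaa
Prc1 (chr7:80294411-80294475, +): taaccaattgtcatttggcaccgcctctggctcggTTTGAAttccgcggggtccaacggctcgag
In Kif11, Top2a, Cdc20 and Prc1 the element begins 19, 23, 18 and 30 bases before the start, and in Ccnb2 167 bases before it. Mki67, the proliferation antigen Ki-67, has 2 copies in the stretch shown. Top2a, Mki67, Cdc20 and Prc1 were lower, with changes of -3.19, -3.07, -2.997 and -2.85 log2. Binding was not measured in these libraries.

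**Figure D3:**
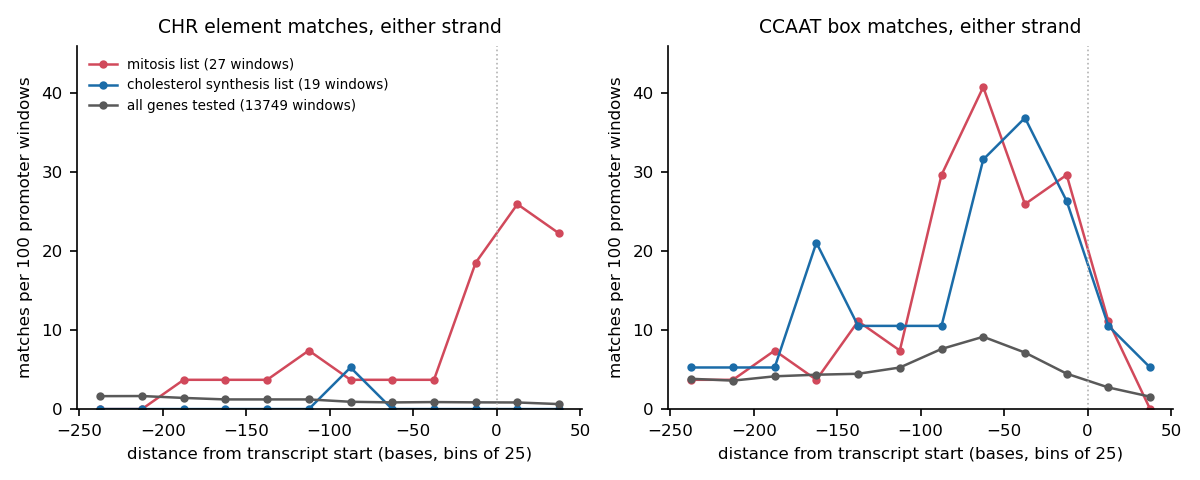
Matches of the CHR element (left) and the CCAAT box (right) per 100 promoter windows, in bins of 25 bases around RefSeq transcript starts, for the mitosis list (27 windows), the cholesterol synthesis list (19 windows) and all genes tested (13749 windows). CHR matches of the mitosis list gather from 25 bases before to 50 bases after the start, with up to 25.9 per 100 windows, against under 2 per 100 windows in every bin for all genes; CCAAT boxes peak upstream of the start for all 3 sets and higher for both lists.

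Of 30 DNA replication genes, 2 were called lower and 0 higher, or 5 lower without 4711-1 and 1 without 4711-18, and the median change was -0.47 log2. Mcm10, which loads the replicative polymerase, was at 34.1, 47.8 and 32.00 TPM in Control and 13.01, 7.51 and 11.5 in Restored and fell by 1.75 log2 (adjusted p = 8.6e-06). Tk1, thymidine kinase, was lower, with a change of -1.15 ± 0.198 log2 (adjusted p = 0.00023), or of -0.91 with an adjusted p of 0.010 without 4711-18. Pcna, the polymerase clamp, was at 532, 639 and 505 in Control and 585, 499.7 and 522 in Restored, and the helicase subunit gene Mcm7 was at 257, 382 and 297 in Control and 259, 259 and 325 in Restored. Both overlapped between groups, and their changes of -0.06 ± 0.16 and -0.14 ± 0.16 log2 did not pass the test (adjusted p = 0.82 and 0.51). The CHR element was in the windows of 4 of 25 replication genes.

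Of 20 recombination and checkpoint genes, 11 were lower and 0 higher, with a median of -1.003 log2. Without 4711-18, 6 were lower. H2ax, the histone variant that marks DNA breaks, was at 136, 165 and 100.3 TPM in Control and 20.3, 17.8 and 16.9 in Restored and fell by 2.78 log2 (adjusted p = 4.2e-09). Fancd2, of the Fanconi anemia pathway, fell by 2.24 log2 (adjusted p = 1.3e-05). The checkpoint kinase genes Chek1 and Chek2 had changes of -0.82 ± 0.17 and -0.72 ± 0.18 log2, short of the size threshold. Of 20 E2F, pocket protein and DREAM genes, Foxm1, the activator of the G2 program, and Mybl2 (B-MYB) fell by 2.66 and 2.46 log2 (adjusted p = 1.3e-07 and 8.9e-07). Foxm1 was at 156, 124 and 146 in Control and 27.00, 9.87 and 36.7 in Restored. E2f1 was at 41.1, 44.2 and 38.9 in Control and 57.1, 56.01 and 55.9 in Restored, a change of 0.44 ± 0.14 log2 under the size threshold. Of 16 cyclins, CDKs and inhibitors, Cdkn1a was higher and Ccna2, Cdkn2c and Cdkn2d lower. Ccnd1, cyclin D1, was at 708, 474 and 822 in Control and 805, 474 and 894 in Restored (change 0.102 ± 0.21 log2, adjusted p = 0.73), and Cdkn2a had a change of -0.56 ± 0.15 log2.

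Of 24 genes of cholesterol synthesis and uptake, 17 were lower and 0 higher, and all 24 changes were negative. Without 4711-18, 10 genes were called, and with only the 6 libraries fitted, 3 were. Insig1, the sterol sensor of the endoplasmic reticulum, was at 61.97, 288 and 60.1 TPM in Control and 32.6, 17.5 and 13.8 in Restored. The groups did not overlap, but most of the loss was in 4711-18, which had started highest, and Insig1 fell by 2.305 log2 (SE 0.46, adjusted p = 0.00084). Cyp51, lanosterol demethylase, was at 64.2, 191 and 82.9 in Control and 33.04, 16.2 and 23.7 in Restored and fell by 2.06 log2 (adjusted p = 0.00082). Mvd and Fdps, of the mevalonate pathway, fell by 1.92 and 1.87 log2 (adjusted p = 0.00050 and 0.00086). Hmgcs1, the enzyme that makes HMG-CoA, was at 109, 318 and 117 in Control and 59.3, 42.9 and 40.4 in Restored and fell by 1.75 log2 (adjusted p = 0.00063). Srebf2, the transcription factor of the pathway, had a change of -0.85 ± 0.18 log2, under the size threshold. For all 24 genes the line with the lowest change was 4711-18, and the list medians were -0.76, -2.196 and -0.97 log2.

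All 16 sterol genes with a RefSeq window held a CCAAT box, against 42.8% of all genes, while 1 of 16 held the sterol element in the spelling TCACNCCAC (1.38% of all). The 3 deepest-falling members are shown with CCAAT matches on either strand in capitals.
Insig1 (chr5:28071162-28071235, +): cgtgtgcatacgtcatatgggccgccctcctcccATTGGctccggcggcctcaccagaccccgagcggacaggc
Cyp51 (chr5:4104698-4104761, -): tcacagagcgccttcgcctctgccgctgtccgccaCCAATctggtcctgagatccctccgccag
Mvd (chr8:122443423-122443484, -): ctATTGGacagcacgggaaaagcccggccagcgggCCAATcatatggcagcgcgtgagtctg
Mvd carries 2 copies in the stretch shown. Only 1 of 16 windows held the CHR element.

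Of 14 fatty acid synthesis genes, 6 were lower and 0 higher. Without the cell line term, without 4711-18 or with only the 6 libraries fitted, 3 were lower. Scd2, a desaturase, was at 789.6, 2317 and 1052 TPM in Control and 339, 289 and 393 in Restored and fell by 1.88 log2 (adjusted p = 8.9e-05). The 3 lines ended close together after starting apart. Elovl6, an elongase, was at 34.9, 86.9 and 34.3 in Control and 9.26, 8.52 and 6.56 in Restored and fell by 2.41 log2 (adjusted p = 2.0e-05). Scd1, at 113, 947 and 208 in Control and 48.4, 126 and 64.4 in Restored, overlapped between groups and was called only with the cell line term (-1.92 ± 0.27 log2, adjusted p = 4.2e-05, or 0.14 without the term). Srebf1, the factor that drives these genes, and Acly had changes of -0.89 ± 0.17 and -0.64 ± 0.196 log2, under the size threshold.

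Of 20 genes of the ATF4 response, which meets amino acid shortage and unfolded proteins, 7 were higher and 1 lower, with a median of 0.87 log2. Ppp1r15a (GADD34), which restarts translation, was at 82.7, 77.1 and 81.97 TPM in Control and 290.1, 469 and 161 in Restored and rose by 1.78 ± 0.28 log2 (adjusted p = 0.00011). Ddit3 (CHOP) was at 26.9, 37.3 and 22.4 in Control and 85.2, 199 and 58.9 in Restored and rose by 1.79 ± 0.36 log2 (adjusted p = 0.00089). For both, 4711-18 was highest and 4716-11 lowest among the Restored libraries. Atf3 was higher by 1.82 ± 0.46 log2 (adjusted p = 0.0047), but without 4711-18 its change was 1.17 with an adjusted p of 0.12. Atf4 itself was at 584, 610.4 and 584 in Control and 1096, 1065 and 780.04 in Restored, a change of 0.71 ± 0.22 log2 under the size threshold, and Asns, asparagine synthetase, had a change of 0.35 ± 0.32 log2 (adjusted p = 0.41). Of 17 chaperones of the endoplasmic reticulum, 1 was called higher, Dnajb9 by 1.54 ± 0.21 log2 (adjusted p = 2.9e-05), and Calr and Hsp90b1 had changes of -0.67 ± 0.19 and -0.402 ± 0.18 log2.

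Of 15 NRF2 target and regulator genes, 5 were higher and 0 lower, or 3 higher without 4711-18. Beside Hmox1, Osgin1, an oxidative stress growth inhibitor, was at 106, 117 and 101 TPM in Control and 591, 483 and 307 in Restored and rose by 2.03 ± 0.33 log2 (adjusted p = 0.00014). Gclc, the catalytic subunit that makes glutathione, rose by 1.47 ± 0.25 log2, and Txnrd1, thioredoxin reductase, by 1.21 ± 0.22 log2 (adjusted p = 0.00022 and 0.00043). Txnrd1 without 4711-18 was 0.897 with an adjusted p of 0.019. Nqo1, a standard NRF2 target, was at 4.44, 28.8 and 1.27 in Control and 1.29, 52.4 and 1.01 in Restored, with no common direction (change -0.196 ± 0.49 log2, adjusted p = 0.79). Of 14 ferroptosis and iron genes, 3 were called higher and 0 lower, but only Hmox1 was called without the cell line term. Gpx4, which protects membranes from ferroptosis, was at 307, 448 and 274 in Control and 283, 427 and 286 in Restored (change -0.04 ± 0.13 log2, adjusted p = 0.84), and the ferritin genes Ftl1 and Fth1 had changes of -0.37 ± 0.23 and 0.28 ± 0.18 log2 that did not pass.

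Of 25 lysosome and 26 autophagy genes, 5 each were higher and 0 lower, with medians of 0.56 and 0.51 log2. Hyal1, a hyaluronidase, was at 2.82, 1.65 and 2.13 TPM in Control and 44.6, 47.5 and 33.9 in Restored and rose by 3.75 ± 0.17 log2 (adjusted p = 3.3e-10). Tpp1, a lysosomal peptidase, was at 82.4, 101 and 71.9 in Control and 243, 317 and 235 in Restored and rose by 1.63 ± 0.12 log2 (adjusted p = 7.1e-08). Ctsl, cathepsin L, rose by 1.74 ± 0.25 log2 (adjusted p = 5.2e-05), while Lamp1, a structural membrane protein, was at 941, 767 and 1110.3 in Control and 1114, 1129.9 and 1384 in Restored and did not pass (change 0.37 ± 0.19 log2, adjusted p = 0.12). Cd68, a lysosomal membrane protein is also a macrophage marker, while Adgre1 was listed at 0 and Ptprc was at most 0.13 TPM. In autophagy, Atg7, an activating enzyme, and Atg14, a subunit of the lipid kinase complex, rose by 1.45 ± 0.11 and 1.18 ± 0.15 log2 (adjusted p = 7.5e-08 and 1.1e-05). Sqstm1 (p62) was at 618, 596 and 539 in Control and 1944, 2585 and 1014 in Restored and was called at 1.56 ± 0.38 log2 (adjusted p = 0.0037), but at 1.28 with an adjusted p of 0.065 without 4711-18. Map1lc3b and Gabarap, which coat autophagosomes, had changes of 0.34 ± 0.18 and 0.33 ± 0.12 log2 and were not called. Without 4711-18, 3 autophagy genes were higher.

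Of 25 secreted factors of the senescence type, 9 were higher and 3 lower (6 and 0 without the cell line term). The stromelysin Mmp10 was at 4.74, 0.222 and 7.76 TPM in Control and 277, 50.5 and 103 in Restored and rose by 4.85 ± 0.48 log2 (adjusted p = 1.1e-06). Csf2, the growth factor GM-CSF, was at 17.3, 10.04 and 64.6 in Control and 398, 439 and 229 in Restored and rose by 3.86 ± 0.52 log2 (adjusted p = 2.8e-05). Lif, Areg and Vegfa rose by 2.99 ± 0.27, 2.22 ± 0.31 and 1.86 ± 0.47 log2, though Vegfa without 4711-18 was 1.73 with an adjusted p of 0.054. The chemokine genes Ccl20 and Ccl2 were lower like Cxcl5, by -3.099 ± 0.28 and -2.96 ± 0.44 log2, with adjusted p values of 0.19 and 0.52 without the cell line term. Cxcl1 was at 543, 491 and 1081 in Control and 350.3, 790.1 and 585 in Restored with no common direction (change -0.28 ± 0.41 log2, adjusted p = 0.62), and Igfbp4 had a change of 0.29 ± 0.35 log2 (adjusted p = 0.54).

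Krt18, a keratin of simple epithelium, was at 5115, 2797 and 3815 TPM in Control and 4707, 2466 and 3245 in Restored, and its change of -0.18 ± 0.16 log2 did not pass the test (adjusted p = 0.40). Of 22 junction and keratin genes, 4 were higher and 2 lower (2 and 0 without the cell line term). St14, the membrane protease matriptase, was at 0.245, 0.0479 and 0.401 in Control and 14.7, 26.3 and 17.8 in Restored and rose by 4.03 ± 0.43 log2 (adjusted p = 2.5e-06). Of 14 squamous and cornified envelope genes, 7 were higher and 0 lower (4 higher without the term). Sprr2b, the family member of Sprr1a that was called lower, is not in this list. Ivl, involucrin, was at 1.53, 0.498 and 2.41 in Control and 20.7, 17.3 and 27.2 in Restored, and Zfp750, a factor of epidermal differentiation, at 0.101, 0.0591 and 0.165 in Control and 7.88, 9.39 and 6.47 in Restored. They rose by 3.25 ± 0.38 and 2.995 ± 0.21 log2 (adjusted p = 7.2e-06 and 3.9e-08). Trp63, the squamous master factor, was at most 0.124 TPM in any of the 6 libraries. Among 15 mesenchymal genes only Fn1, fibronectin, was called, at 276, 172 and 634 in Control and 900.4, 545 and 1827 in Restored (change 1.63 ± 0.28 log2, adjusted p = 0.00021), and not without the cell line term (adjusted p = 0.077). Vim, at 5360.2, 3031 and 4073 in Control and 4491, 2365 and 3093 in Restored, had a change of -0.34 ± 0.11 log2.

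In the Notch list 3 of 12 were higher and 1 lower, against 7.05% and 4.16% of all genes tested. The receptor Notch3 was at 0.0544, 0.0477 and 0.178 TPM in Control and 3.31, 9.49 and 18.7 in Restored. The receptor Notch1 was at 4.601, 33.7 and 5.300 in Control and 24.6, 62.2 and 36.3 in Restored. They rose by 3.14 ± 0.49 and 1.87 ± 0.401 log2 (adjusted p = 0.00010 and 0.0013), Notch1 not without the cell line term (adjusted p = 0.23), and Lfng, a glycosyltransferase that tunes the receptors, fell by 1.34 log2. In the Wnt list 3 of 15 were higher and 1 lower, led by the ligand Wnt9a at 0.165, 0.231 and 0.646 in Control and 6.800, 23.5 and 14.9 in Restored (change 3.44 ± 0.299 log2, adjusted p = 2.8e-07). Of 16 MAPK feedback and immediate early genes, 5 were higher and 1 lower, while without the cell line term 0 were called in either direction and without 4711-18 1 was higher. Dusp5, a nuclear phosphatase of ERK, was at 43.3, 14.9 and 49.6 in Control and 265, 100.1 and 134 in Restored and rose by 2.22 ± 0.32 log2 (adjusted p = 4.4e-05, or 0.061 without the term). Myc was at 259, 147 and 362 in Control and 313, 128 and 324 in Restored (change -0.03 ± 0.13 log2, adjusted p = 0.89), while Mycl, first known from small cell lung cancer, was at 13.2, 3.67 and 14.8 in Control and 2.19, 0.581 and 3.71 in Restored and was lower, with a change of -1.82 ± 0.25 log2 (adjusted p = 3.4e-05). Its groups overlapped, since 4711-18 in Control lay below the highest Restored library.

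Tap1, the peptide transporter that feeds MHC class I, was at 0.987, 0.449 and 0.837 TPM in Control and 33.9, 38.6 and 46.03 in Restored and rose by 4.53 ± 0.21 log2 (adjusted p = 7.7e-10). Of the 12 antigen processing genes of its list, 4 were higher and 0 lower, against 7.05% and 4.16% of all genes tested, and B2m, the light chain of MHC class I, was at 247, 251 and 319.9 in Control and 346, 284 and 389 in Restored with a change of 0.32 ± 0.103 log2. Without the cell line term or without 4716-11, 2 were higher. Of 22 interferon response genes 1 was higher, Ifi35 by 1.25 ± 0.12 log2 (adjusted p = 8.2e-07), and the restriction factor gene Bst2 had a change of -0.498 ± 0.25 log2 (adjusted p = 0.12). Of 23 ribosome biogenesis genes 2 were lower and 0 higher, or 1 lower without 4711-1 or 4711-18. Dkc1, the pseudouridine synthase dyskerin, was at 99.3, 108 and 94.04 in Control and 35.9, 37.5 and 37.9 in Restored and fell by 1.41 log2 (adjusted p = 1.1e-05). Of 22 nuclear genes of oxidative phosphorylation, 0 were called in the limma fit, where 15 had an unadjusted p under 0.05, 14 of them lower, each with a change under the size threshold. Over all genes tested, 52.2% had an unadjusted p under 0.05, and 20.4% were lower with such a p. Of 21 glycolysis and hypoxia genes, 2 were higher (Hk2 and Ankrd37) and 0 lower, and 0 were called without the cell line term. Ldha, lactate dehydrogenase A, was at 3035, 3087 and 3632 in Control and 1987, 1486 and 3102 in Restored, a change of -0.63 ± 0.15 log2 under the size threshold.

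In the Myc network 1 of 12 genes was higher and 2 lower, against 7.05% and 4.16% of all genes tested. Mxd1, an antagonist of MYC, was at 19.1, 14.4 and 10.5 TPM in Control and 57.4, 61.8 and 29.3 in Restored and rose by 1.65 ± 0.21 log2, while its relative Mxd3 was at 16.4, 24.7 and 17.7 in Control and 3.08, 1.23 and 5.52 in Restored and fell by 2.38 log2 (adjusted p = 1.7e-05 and 3.6e-05). Of 13 Hippo pathway genes and targets, 2 were higher and 0 lower. Tead3, a partner of YAP on DNA, rose by 1.35 ± 0.19 log2 (adjusted p = 3.7e-05), and Ankrd1, a YAP target, was called only with the cell line term (1.701 ± 0.34 log2, adjusted p = 0.00085, or 0.56 without the term). Of 9 noncoding RNAs linked to p53, 2 were higher and 0 lower. Pvt1 was at 8.35, 5.404 and 11.5 in Control and 27.8, 35.1 and 33.9 in Restored and rose by 1.87 ± 0.15 log2, and Trp53cor1, the noncoding neighbor of Cdkn1a, was at 0.2098, 1.04 and 0.8005 in Control and 1.06, 6.49 and 5.57 in Restored and rose by 1.504 ± 0.24 log2 (adjusted p = 1.7e-07 and 0.00010). Of 8 tested neuroendocrine and subtype factors, 0 were called in the limma fit and 2, Hes1 and Rest, had an unadjusted p under 0.05, against 52.2% of all genes tested. Rest, the repressor of neuronal genes, was at 20.03, 19.6 and 23.4 in Control and 30.1, 36.3 and 31.6 in Restored, a change of 0.61 ± 0.11 log2 under the size threshold.

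The size of the change varied by line. Of the 587 genes called lower, 443 (75.5%) fell most in 4711-18, 101 in 4711-1 and 43 in 4716-11, and the median change of these genes was -1.43, -1.93 and -1.22 log2. Of the 995 genes called higher, 503 (50.6%) rose most in 4711-18, with medians of 1.41, 1.63 and 1.36 log2. For the mitosis list the line medians were -2.63, -3.93 and -2.35 log2, and 4711-18 was lowest for all 30 genes. Trp53 changed by 4.16, 3.61 and 4.12 log2, with the lines listed as before. The lists of p53 death targets gave 1.89, 2.14 and 1.997 log2. With 1 library per line and condition these line differences have no replicate test.

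**Figure D4:**
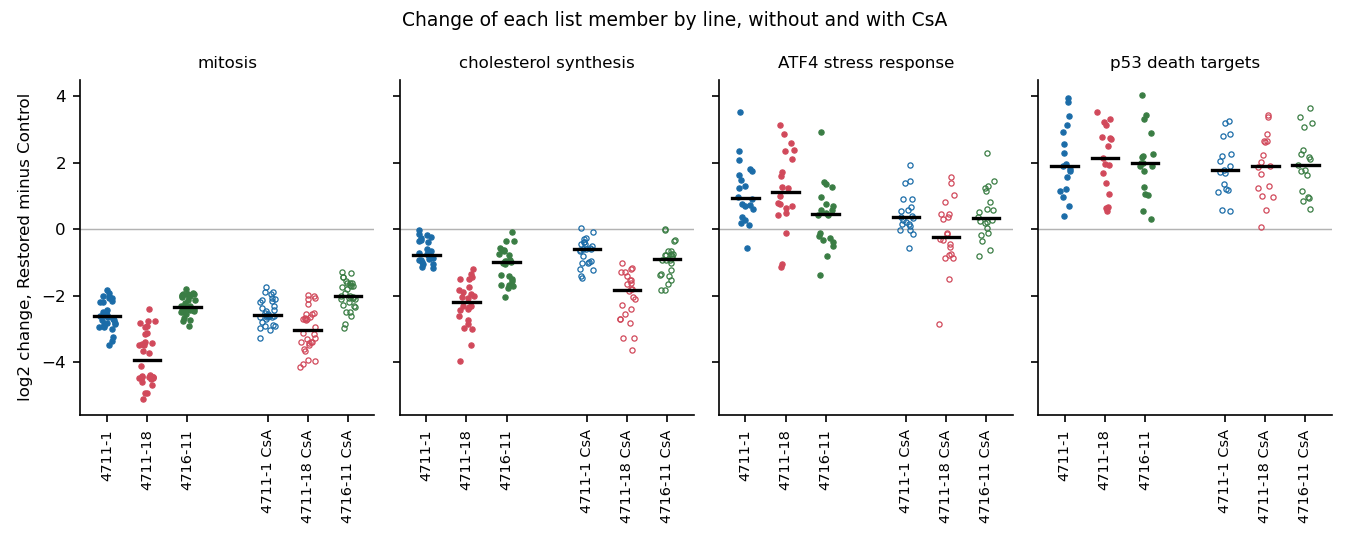
Log2 change, Restored minus Control, of each member of 4 gene lists in the 3 Type D lines, without CsA (filled) and with cyclosporin A, CsA (open), with list medians as black bars. 4711-18 has the lowest value for all 30 mitosis and all 24 cholesterol synthesis members without CsA, and for 28 and 24 with it. ATF4 members lie higher without CsA for 18 of 20 in 4711-1, 20 in 4711-18 and 8 in 4716-11, and the p53 death target medians run from 1.79 to 2.14 log2.

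The genes whose change differed most between lines were Guca2a, Sprr1a, Sftpb, Mir6945 and Mir7026. Guca2a, the gut hormone guanylin, was at 0.783, 209 and 0.961 TPM in Control and 0, 0.286 and 0.4001 in Restored, so that its change was -0.83, -7.35 and -0.49 log2 by line. It was called at -2.89 ± 0.99 log2 (adjusted p = 0.026), and without 4711-18 its change was -0.66 with an adjusted p of 0.038. Sftpb, a surfactant protein of alveolar type 2 cells, had the same shape, with changes of -0.66, -5.32 and -0.62 log2 and -0.64 with an adjusted p of 0.013 without 4711-18. Mir6945 and Mir7026 are annotated microRNA hairpins, shorter than most fragments of an mRNA library, and their levels are uncertain. Mir6945 lost its call without 4711-18 (1.75 with an adjusted p of 0.24) or 4716-11 (1.34 with an adjusted p of 0.34), and Mir7026 without 4711-1 (2.201 with an adjusted p of 0.15) or 4711-18 (1.77 with an adjusted p of 0.22). Of 365 tested genes with microRNA or small nucleolar RNA symbols, 32 (8.77%) were called higher and 9 (2.47%) lower, near the 7.05% and 4.16% of all genes.

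Type V lines stay viable after the same treatment and are named 4711-11, 4716-10 and 4716-14, so the first numbers recur across types. Their 3 Control and 3 Restored libraries share no sample with the 6 above. Of the genes called in Type D, 941 of 995 and 520 of 587 had the same sign in Type V, with medians of 1.00 log2 there against 1.41 log2 in Type D for the higher and -0.86 against -1.45 log2 for the lower genes. These genes were chosen on Type D, so the lower medians in Type V are a description. The difference between types was tested gene by gene in the same model, and 160 genes had a more positive change in Type D (1.13%) and 184 a more negative one (1.30%). Without the cell line term 3 and 1 genes passed, and with only the 12 libraries compared 3 and 2. Leaving out 4711-1 gave 60 and 71, and leaving out 4711-18 gave 69 and 75. Of the 160, 91 were called higher in Type D and 38 lower in Type V. Of the 184, 91 were called lower in Type D and 54 higher in Type V. Opposite calls in both types were rare, at 0 and 1.

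**Figure D5:**
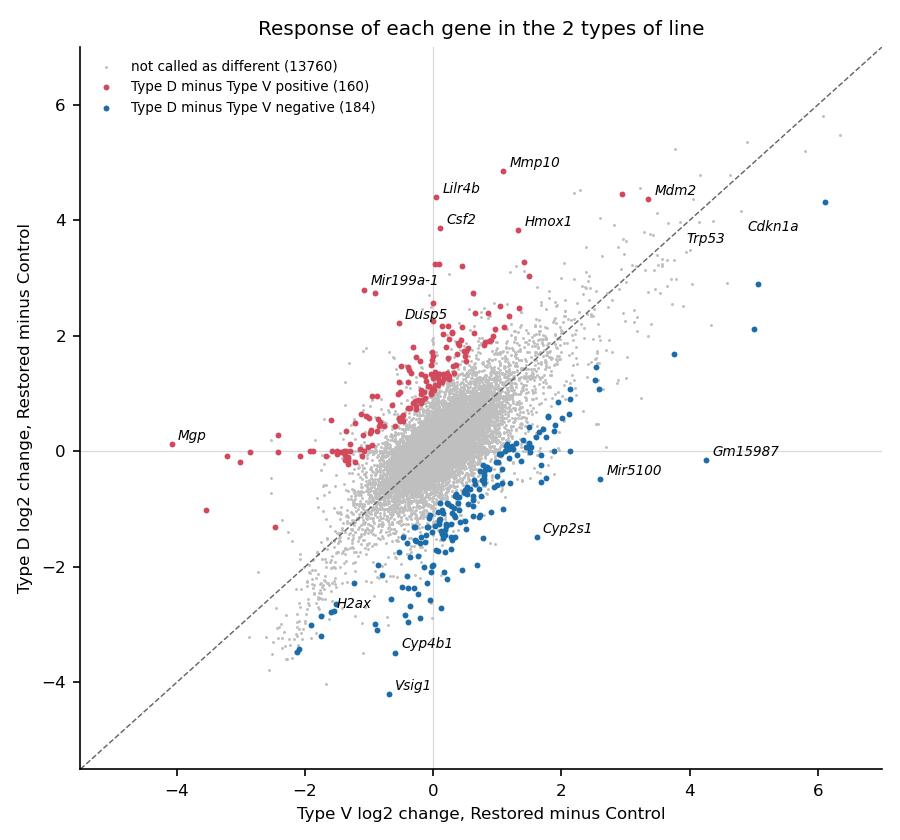
Log2 change, Restored minus Control, of each of 14104 genes in Type V (x axis) and Type D (y axis), with a dashed line of equal change and colors for genes whose difference was called (160 positive in red, 184 negative in blue). Trp53 lies near the line and Cdkn1a below it, Lilr4b, Mmp10 and Csf2 lie high in Type D near 0 to 1.10 in Type V, and Vsig1 and Cyp4b1 lie lower in Type D than in Type V.

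For Trp53 and Cdkn1a the difference between types did not pass the test, at 0.12 ± 0.17 and -0.63 ± 0.19 log2 (adjusted p = 0.72 and 0.062). Mdm2 rose more in Type D, by 1.01 ± 0.18 log2 (adjusted p = 0.0075). Csf2 changed by 3.86 log2 in Type D and by 0.11 in Type V, where it was at 0 to 2.93 TPM in Control and 0 to 5.78 in Restored. The difference was 3.75 ± 0.74 log2 (adjusted p = 0.010), with adjusted p = 0.0549 without 4711-11 and 0.0590 without 4716-14. Without 4711-1 its adjusted p was 0.066. Mmp10 differed by 3.76 ± 0.68 log2 (adjusted p = 0.0068), Hmox1 by 2.499 ± 0.69 log2 (adjusted p = 0.045) and Dusp5 by 2.76 ± 0.45 log2 (adjusted p = 0.0037). For Mmp10 the adjusted p was 0.061 without 4711-1 and 0.057 without 4711-18. Lilr4b, a receptor gene of myeloid cells, was at 0.471, 0.118 and 0.441 TPM in Type D Control and 70.6, 20.9 and 13.4 in Type D Restored, and at most 0.101 TPM in Type V. It differed by 4.36 ± 0.45 log2 (adjusted p = 0.00021), and its close copy Lilrb4a, which may share its reads, had a listed TPM of 0 in each Type D Control library and of 17.1, 7.27 and 4.74 in the Restored ones. Among mitosis genes 6 of 30 fell further in Type D, among them Ccnb1 with a difference of -1.36 ± 0.33 log2 (adjusted p = 0.027) and Aurkb with one of -1.33 ± 0.37 log2 (adjusted p = 0.046). With each of the 6 lines left out in turn, the difference was not called in 5 of 6 fits for Ccnb1, Aurkb and Hmox1, in 3 for Mdm2, in 2 for H2ax and in 0 for Dusp5. Neither without the cell line term nor with only the libraries compared was any of Ccnb1, Aurkb, Hmox1, Mdm2, H2ax and Dusp5 called as different. Lilr4b and Lilrb4a were called as different without the term (adjusted p = 0.00087 and 0.0014) but not with only the libraries compared. With only the libraries compared the adjusted p was 0.108 for Dusp5, 0.091 for Mdm2 and 0.123 for H2ax.

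Part of the differences concerned genes with little transcript in 1 of the types. Mgp, matrix Gla protein, was at 0, 0.312 and 0 TPM in Type D Control and 0, 0.2598 and 0.364 in Type D Restored, against 210.5 to 292 in Type V Control and 9.95 to 20.2 in Type V Restored, so its difference of 4.21 ± 0.34 log2 (adjusted p = 1.4e-05) went with a fall in Type V. Gm15987 was under 1 TPM in all 6 Type D libraries and at 14.1 to 33.6 in Type V Restored, a difference of -4.41 ± 0.35 log2 (adjusted p = 1.4e-05). Vsig1 was at 0 to 6.62 TPM in Type V Control, against 53.7, 100.2 and 87.02 in Type D Control, and its difference was -3.51 ± 0.56 log2 (adjusted p = 0.0034). Cyp4b1 was at 7.51 to 15.7 in Type V Control and 4.22 to 13.1 in Type V Restored and differed by -2.89 ± 0.34 log2 (adjusted p = 0.00063). Cyp2s1, another cytochrome P450, was at 114, 284 and 149 in Type D Control and 22.7, 61.5 and 153 in Type D Restored, where 4716-11 stayed level, and differed by -3.09 ± 0.47 log2 (adjusted p = 0.0024). Its change within Type D was -1.48 ± 0.33 log2, or -1.07 with an adjusted p of 0.052 without 4711-1 and -1.12 with an adjusted p of 0.056 without 4711-18. H2ax was at 85.4 to 128 TPM in Type V Control and 23.4 to 43.00 in Type V Restored, and it differed by -1.18 ± 0.22 log2 (adjusted p = 0.0089).

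The same 3 Type D lines were also taken through restoration with CsA in both arms, in 6 other libraries, which repeat the comparison on the same lines in the presence of the inhibitor. There 833 genes were higher and 533 lower (5.91% and 3.78%). Of the 995 genes called higher without CsA, 700 (70.4%) were called higher with it, which is 84.0% of the 833. Of the 587 called lower, 436 (74.3%) were called lower, which is 81.8% of the 533, and 0 genes were called in opposite directions. Trp53, Cdkn1a and Mdm2 changed by 3.97, 4.17 and 4.37 log2 without CsA and by 4.004, 3.78 and 3.99 with it. The mitosis list had a median of -2.99 without and -2.58 with CsA, and all 30 genes were called lower both times. The lowest line was again 4711-18, with mitosis medians of -2.59, -3.04 and -2.01 log2 and sterol medians of -0.61, -1.83 and -0.89 log2 under CsA. The ATF4 list stood at 0.87 log2 without and 0.07 with CsA, with 7 and 3 genes higher. By line its medians were 0.94 and 0.36 in 4711-1, 1.12 and -0.23 in 4711-18, and 0.46 and 0.33 in 4716-11, where 12 of 20 members were higher with CsA. The glycolysis and hypoxia list stood at -0.07 and -0.71 log2, with 0 and 6 genes lower. Whether these responses differ with CsA was not tested here.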

How the data were processed

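The authors deposited 1 table of TPM for 25239 genes in 24 libraries of stranded, single-end mRNA sequencing. Their methods name kallisto or HISAT2, and both mm10 and GRCm39 are written; which of them lies behind the TPM is not given in the sources used here. TPM keeps no depth, so sequencing depth per library is unknown and no counting error is given.

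The fit kept 14104 genes, those that reached 1 TPM in 3 or more libraries. log2(TPM + 1) was fitted with limma 3.58.1 in R 4.3.3 (lmFit, then eBayes with trend) over all 24 libraries, with cell line as a block and treatment within each type (12 residual degrees of freedom). Tests were two-sided with Benjamini-Hochberg adjustment over all genes tested. The main fit is paired by cell line, as the labels name the line. Deviations from the group means correlated at 0.714, 0.718 and 0.604 within a line and between -0.542 and -0.00619 across lines. Such deviations cancel over the 3 lines of a group, so positive values within lines force negative ones across lines on average. The across-line values are therefore a description. CsA and CsA-free libraries of a line share that line, so their deviations are not fully independent. On simulated data, 96% of genes changed by 1.5 log2 were called in the Type D comparison. Each of 3 draws held 14104 genes and changed 200 of them, all above a minimum level and by the same amount in every line. Noise was drawn independently for each library. Genes with a low TPM were not among the changed ones, and a response that differs by line was not simulated, so the 96% does not cover them.

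The members and the 38 gene lists (665 of 666 genes matched) were chosen with earlier results of these data known. Genes were named by rule: the markers Trp53, Cdkn1a and Mdm2; the 12 largest rises and falls with the same sign in all lines and a mean TPM of at least 5; up to 4 called and 3 uncalled members of each list; the largest differences between types; the largest gains and losses in TPM; and the genes with the largest spread over lines. The uncalled members are given in part, and other list members were named after their values were seen. Promoter sequences are from RefSeq (GRCm38.p6), matched by symbol, with 1 chromosome left out. Alternatives were no cell line block, only the libraries compared, no filter, a filter at 5 TPM, a pseudocount of 0.1, quantile normalization, median-ratio scaling, and each line left out.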

Additional observations from a re-analysis of the deposited data

Results flagged for a closer look

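Each result here is a gene whose change on restoration differed between Type D and Type V lines by the test of the difference in limma, and the 5 largest in each direction are given as Type D minus Type V on the log2(TPM + 1) scale. Lilr4b differed by 4.36 ± 0.45, with an adjusted p of 0.074 when only the libraries compared were fitted. Mgp differed by 4.21 ± 0.34 through its fall in Type V. Mir199a-1 differed by 3.88 ± 1.0001, in a short RNA that an mRNA library measures poorly, and was not called in 4 of the 6 fits that each left out a line (adjusted p = 0.088 without 4711-1, 0.12 without 4711-18, 0.107 without 4711-11 and 0.106 without 4716-10). Mmp10 and Csf2 differed by 3.76 ± 0.68 and 3.75 ± 0.74, and neither was called without the cell line term (adjusted p = 1.0 and 0.93).

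On the negative side, Gm15987 differed by -4.41 ± 0.35, through its rise in Type V. Vsig1 differed by -3.51 ± 0.56 and Cyp4b1 by -2.89 ± 0.34, and Vsig1 had more transcript in each Type D Control library than in any Type V Control library. Cyp2s1 differed by -3.09 ± 0.47. Without the cell line term none of these 3 was called (adjusted p = 0.76 for Vsig1, 0.29 for Cyp4b1 and 1.0 for Cyp2s1), and with only the libraries compared Vsig1 (adjusted p = 0.116) and Cyp2s1 (adjusted p = 0.135) were not. Mir5100, another short RNA, differed by -3.09 ± 0.72 and was listed at 0 in all Type D Restored libraries and all Type V Control libraries. It was not called in 3 of the 6 fits that each left out a line, with adjusted p = 0.123 without 4711-1, 0.064 without 4711-18 and 0.089 without 4711-11. Neither short RNA was called without the cell line term (adjusted p = 1.0 and 0.70) or with only the libraries compared (adjusted p = 0.130 and 0.091).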

How the results depend on the processing

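Without the cell line block, which pairs the libraries of a line, 633 genes were higher and 344 lower on restoration in Type D, all of them also called in the paired fit, 498 and 265 under CsA, and 3 positive and 1 negative in the difference between types. With only the libraries compared, the difference gave 3 and 2. Leaving out each line in turn gave 892 to 1026 genes higher and 450 to 699 lower in Type D, 768 to 965 and 490 to 552 under CsA, and 60 to 192 positive and 71 to 268 negative differences. Among 151 named genes with a call, 100 kept it in every alternative, 51 lost it in at least 1, and 0 changed direction. Most losses came without the block (35 genes), with only the libraries compared (32) and without 4711-18 (22). The limits are 3 lines per type, 1 library per line and condition, TPM without depth, and 4-hydroxytamoxifen in every Restored library. The causes of these shifts were not tested.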
